A study of Mus musculus with 8 samples.

Results

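The genes examined here encode the subunits of oxidative phosphorylation, in the nuclear and the mitochondrial genome. They were taken by name from the protein-coding rows of the gene table: names starting with mt-, Ndufa, Ndufb, Ndufc, Ndufs, Ndufv, Sdha, Sdhb, Sdhc, Sdhd, Uqcr, Atp5, Cox4, Cox5, Cox6 or Cox7, without the Ndufaf assembly factors and Cox8b. This gave 100 of the 54532 genes in the table, of which 87 lie in the nuclear and 13 in the mitochondrial genome. The rule also takes genes that are not core subunits: the 4 Sdhaf assembly factors of complex II, Atp5s and Cox7a2l. Cells were cardiac fibroblasts of the mouse, sorted for PDGFRα, a receptor that marks fibroblasts, from infarcts taken 7 days after coronary occlusion and not cultured. The 4 FTbR2KO samples came from mice in which tamoxifen had been given to delete TbR2, the type 2 receptor of TGF-β, in fibroblasts. The 4 TbR2fl/fl samples came from mice with the floxed gene that had received tamoxifen too. The sources used here name neither the Cre driver nor the age of the mice, and do not say whether each sample is 1 animal. The p-values here speak only of the spread from sample to sample, which may be technical. Poly(A) RNA was sequenced, and each gene's level is the authors' FPKM, which scales its reads by gene length and by library size.

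Oxidative phosphorylation passes electrons from NADH and succinate through complexes I to IV of the inner mitochondrial membrane to oxygen, while protons are pumped out, and complex V, the ATP synthase, uses the return of those protons to make ATP. Most subunits are encoded in the nucleus and imported. The mitochondrial genome adds the core hydrophobic subunits of complexes I, III, IV and V, transcribed from both strands as long precursors that are cut at tRNAs. Complex II is wholly nuclear.

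The libraries held 16.1 to 22.9 M reads in the FTbR2KO group and 21.2 to 28.7 M in the TbR2fl/fl group, as recovered from the FPKM values. The targeted gene goes against its label: Tgfbr2 stood at 58.2 ± 1.30 FPKM in the libraries labelled FTbR2KO and 45.5 ± 3.86 FPKM in the TbR2fl/fl libraries (SD, n = 4 each). A gene-level value cannot show whether an internal exon was lost, and every direction given here refers to the libraries as labelled. FTbR2KO 1 and TbR2fl/fl 5 stood apart from the others in these genes, as set out with the results that rest on them. The 7 fibroblast markers Pdgfra, Col1a1, Col3a1, Dcn, Lum, Tcf21 and Postn summed to 9738 to 11681 FPKM in FTbR2KO and 11070.5 to 12488 FPKM in TbR2fl/fl libraries, so the labelled cell type had its markers.

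The nuclear genes lay lower in the libraries labelled FTbR2KO by a small amount, and none of them passed the test. Genes that reached 1 FPKM in 4 or more of the 8 libraries were compared by limma on log2(FPKM + 1), with Benjamini-Hochberg adjustment over all 11667 genes tested and a threshold of 0.05. This took in 82 of the 87 nuclear and 12 of the 13 mt- genes. No member passed, against 0.0171% of all genes tested, and the smallest adjusted p was 0.571 among nuclear and 0.764 among mt- genes. Of the 82 nuclear genes 76 had a log2 fold change below 0 and 6 above, with a median of -0.19 (range -0.75 to 0.26). The median over all genes tested was -0.0045, with 51.2% below 0. At an unadjusted p under 0.05, 17 nuclear genes were lower and 0 were higher, and 4.87% of all genes tested were lower and 3.74% higher by that rule, 8.61% in all. That makes 20.7% of the nuclear genes. The count moved with single libraries: it was 6, 6, 11 and 25 without FTbR2KO 1, 2, 3 or 4, and 40, 5, 9 and 5 without TbR2fl/fl 5, 6, 7 or 8. Over the fits that left out 1 library, 6.10 to 48.8% of the nuclear genes and 2.44 to 7.46% of all genes tested were lower by that rule. The 4 FTbR2KO values lay below all 4 TbR2fl/fl values in 2 nuclear genes, or 2.44%, against 1.89% of all genes tested, so that share was near the background, and in 0 they lay above all 4, against 2.52%.

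The 12 mt- genes had a median log2 fold change of 0.058 (range -0.070 to 0.18), 10 above 0 and 2 below, and 0 reached an unadjusted p under 0.05. The nuclear median thus lay 0.25 below the mt- median on the log2 scale. Members of 1 list are not replicates, and no p is given for these medians. Scaling each library to the same summed FPKM (TPM) moved the median of all genes to 0.15, and relative to that median the nuclear genes stood at -0.19 and the mt- genes at 0.075. Of the nuclear genes 48, or 58.5%, then lay below 0, against 19.6% of all genes tested, and 3, or 3.66%, were lower at an unadjusted p under 0.05, against 0.643%. The gene Gm23935 alone held 8.12 to 16.7% of the summed FPKM in FTbR2KO and 13.9 to 24.7% in TbR2fl/fl libraries. Its part in the shift under TPM was not tested. The mt- median turned to -0.11 without TbR2fl/fl 5 and to -0.067 when limma weighted the libraries by their quality, while the nuclear median was -0.28 and -0.24 in those fits.

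**Figure D1:**
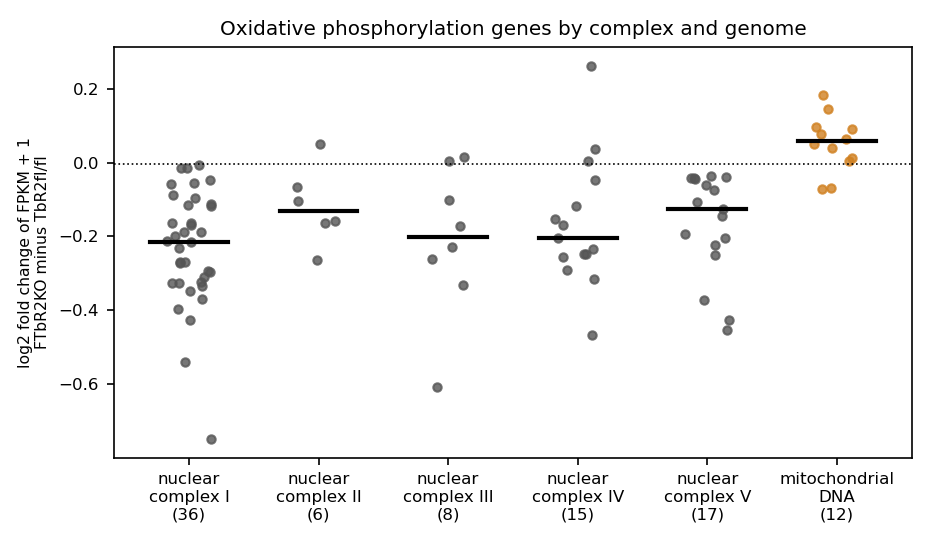
Log2 fold change of FPKM + 1, FTbR2KO minus TbR2fl/fl, for each tested gene (points), with nuclear genes by complex, mt- genes at the right, and the number of genes in parentheses. Bars are medians, the dotted line is the median of all 11667 genes tested; all 36 complex I and all 17 complex V genes lie below 0, and 10 of the 12 mt- genes lie above it.

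Complex I, which takes electrons from NADH, held the lowest of the nuclear values: all 36 of its tested genes had a log2 fold change below 0, with a median of -0.21, and 11 of them were lower at an unadjusted p under 0.05. By that rule 30.6% of the complex I genes were lower, against 4.87% of all genes tested. How this count moved with single libraries was not examined by complex. The summed level of complex I was 621 ± 81.6 FPKM in FTbR2KO and 757 ± 97.8 FPKM in TbR2fl/fl libraries (SD, n = 4 each). Ndufs5, an accessory subunit on chromosome 4 (123712710 to 123718202, minus strand, GRCm38), had the largest difference of all members. It stood at 13.3, 13.2, 16.1 and 31.9 FPKM in FTbR2KO 1 to 4, against 21.5, 33.7, 32.3 and 34.0 FPKM in TbR2fl/fl 5 to 8. FTbR2KO 1 to 3 lay below every TbR2fl/fl library, and FTbR2KO 4 lay among them. The log2 fold change of Ndufs5 came to -0.75, with an SE of 0.27 and a 95% confidence interval from -1.36 to -0.14 (limma adjusted p = 0.571).

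Ndufs5 has a near-identical copy elsewhere in the genome, whose level differed between the same libraries. BC002163, a processed pseudogene of 319 bases on chromosome 16 (chr16:42955631-42955949, plus strand, GRCm38), stood at 20.8, 31.6 and 36.2 FPKM in FTbR2KO 1 to 3. It stood at 0.274 FPKM in FTbR2KO 4 and at 0.213, 0.111, 1.07 and 0.220 FPKM in TbR2fl/fl 5 to 8. The copy was high in the 3 libraries with the lowest Ndufs5 and at or near 1 FPKM or less in the other 5. The coding sequence of Ndufs5, of 321 bases, and the copy are shown over their first 150 bases because they differ at only 2 of 319 aligned bases, T81C and A105G (positions from the A of the start codon, the Ndufs5 base first), which are in capitals. Both are from the GENCODE M21 transcripts (GRCm38).
Ndufs5: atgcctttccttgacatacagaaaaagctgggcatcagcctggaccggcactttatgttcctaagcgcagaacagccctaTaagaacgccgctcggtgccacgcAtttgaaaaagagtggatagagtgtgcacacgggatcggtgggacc
BC002163: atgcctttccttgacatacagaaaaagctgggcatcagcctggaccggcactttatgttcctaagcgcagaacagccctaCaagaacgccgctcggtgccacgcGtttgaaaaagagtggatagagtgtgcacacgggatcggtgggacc
A read that holds neither position reads the same from both. In reads per 1e6, by the authors' scaling, the pair together held 18.03, 21.4, 25.4 and 27.5 in FTbR2KO 1 to 4, and 18.5, 29.1, 28.1 and 29.3 in TbR2fl/fl 5 to 8. With the reads of the copy added, the log2 fold change of Ndufs5 was -0.17 (SE 0.18; limma unadjusted p = 0.349, adjusted p = 0.786). This alternative was chosen after the copy's values were seen. Whether the reads came from the gene or from the copy was not tested.

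Ndufa2 is a small accessory subunit and had the highest mean FPKM in complex I. It stood at 37.7, 36.02, 39.6 and 56.1 FPKM in FTbR2KO libraries, against 52.9, 67.3, 57.7 and 67.9 FPKM in TbR2fl/fl libraries. FTbR2KO 1 to 3 again lay below every TbR2fl/fl library, and FTbR2KO 4 lay above TbR2fl/fl 5. Ndufa2 had a log2 fold change of -0.54, with an SE of 0.15 and a 95% confidence interval from -0.88 to -0.20 (limma adjusted p = 0.571), and it has no copy of at least 98% identity over 100 bases in the annotation. Ndufv3, a subunit of the NADH-binding arm, was the one complex I gene whose groups did not overlap, with 15.5, 12.4, 14.6 and 15.9 FPKM in FTbR2KO and 18.4, 18.1, 17.3 and 18.1 FPKM in TbR2fl/fl libraries. Its log2 fold change was -0.29 (SE 0.088; limma adjusted p = 0.571). The other 8 genes at an unadjusted p under 0.05, named here after their values were seen, were Ndufb8, Ndufb3, Ndufb10, Ndufa6, Ndufa8, Ndufb6, Ndufb11 and Ndufv1, with log2 fold changes of -0.40 to -0.22. At the other end, and also named after its value was seen, Ndufs1, which carries iron-sulphur clusters and has the longest complex I gene model, had a log2 fold change of -0.0062.

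**Figure D2:**
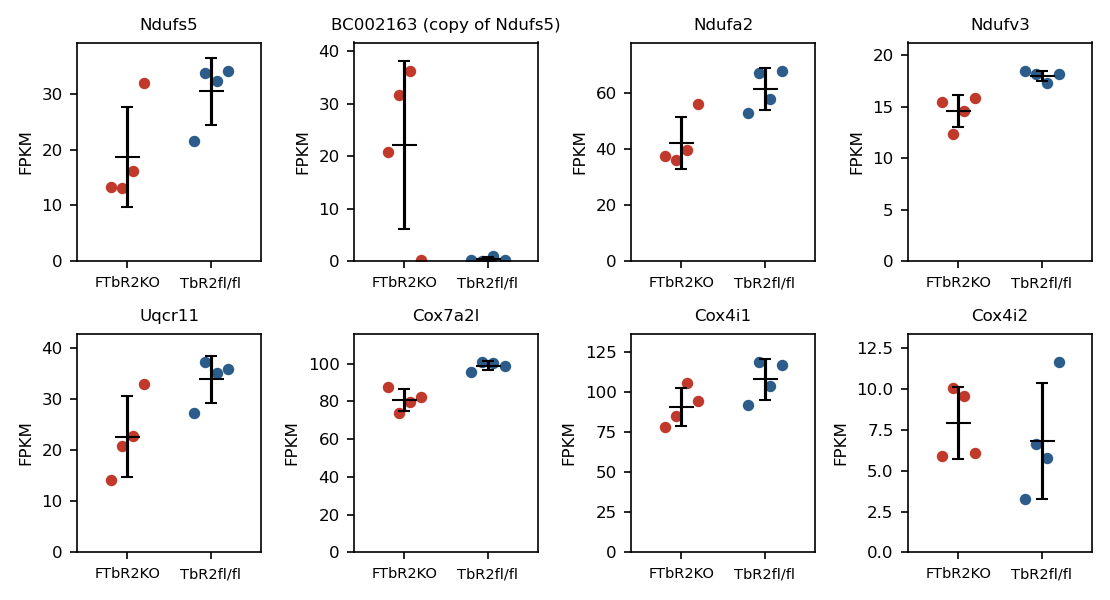
FPKM of 7 members and of BC002163, the processed copy of Ndufs5, in each library (points, in replicate order from left to right), with the mean and SD of 4 libraries per group. BC002163 is at 20.8 to 36.2 FPKM in 3 FTbR2KO libraries and at 0.111 to 1.07 FPKM in the other 5 libraries; Ndufv3 and Cox7a2l show no overlap between the groups.

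Complex II, which oxidises succinate and is also an enzyme of the citric acid cycle, had 5 of its 6 tested genes below 0, with a median log2 fold change of -0.13. Sdhc and Sdhd, which anchor it in the membrane, had log2 fold changes of -0.16 each (SE 0.085 and 0.12). Sdhd, the highest in mean FPKM, stood at 28.2 to 35.1 FPKM in FTbR2KO and 29.6 to 39.7 FPKM in TbR2fl/fl libraries, which overlap widely. The assembly factor Sdhaf4 stood at 8.17, 6.39, 6.83 and 9.27 FPKM in FTbR2KO and 8.57, 9.43, 9.67 and 9.65 FPKM in TbR2fl/fl libraries, a log2 fold change of -0.26 (SE 0.11; limma adjusted p = 0.571). FTbR2KO 1 to 3 lay below all TbR2fl/fl libraries in it. With TPM the complex II median of log2 fold changes was 0.031, below the 0.15 of all genes.

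In complex III, which passes electrons from ubiquinol to cytochrome c, the median log2 fold change of 8 genes was -0.20, with 6 below 0. Uqcr11, its smallest subunit, stood at 14.1, 20.7, 22.8 and 33.1 FPKM in FTbR2KO 1 to 4, against 27.2, 37.3, 35.1 and 35.9 FPKM in TbR2fl/fl 5 to 8. As with Ndufs5 and Ndufa2, FTbR2KO 1 to 3 lay below every TbR2fl/fl library and FTbR2KO 4 did not. The log2 fold change of Uqcr11 was -0.61, with an SE of 0.22 and a 95% confidence interval from -1.10 to -0.11 (limma adjusted p = 0.571), and -0.57 with the reads of its pseudogene Gm16418 added. Uqcrh, the hinge subunit, had 43.4 ± 3.38 FPKM in FTbR2KO and 52.3 ± 5.06 FPKM in TbR2fl/fl libraries (log2 fold change -0.26, SE 0.10; limma adjusted p = 0.571). Uqcrfs1, the Rieske iron-sulphur protein at which electrons leave the quinol, had 29.7 ± 3.44 FPKM in FTbR2KO and 33.5 ± 2.87 FPKM in TbR2fl/fl libraries, with overlapping values.

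Complex IV, cytochrome c oxidase, held the nuclear member with the highest mean FPKM, Cox6a1, the common form of subunit 6a. Cox6a1 stood at 87.4, 116, 139 and 133 FPKM in FTbR2KO and 105, 153, 148 and 163 FPKM in TbR2fl/fl libraries. Its log2 fold change was -0.26 with an SE of 0.18, and the groups overlapped. Of its 15 tested genes 12 lay below 0, with a median of -0.20, which was -0.30 without TbR2fl/fl 5 and -0.078 without TbR2fl/fl 8. Cox7a2l, which helps join complexes III and IV into supercomplexes, stood at 87.8, 73.7, 79.5 and 82.5 FPKM in FTbR2KO, against 95.8, 101, 100.3 and 98.8 FPKM in TbR2fl/fl libraries. All 4 FTbR2KO libraries lay below all 4 TbR2fl/fl libraries, with a log2 fold change of -0.29 (SE 0.087; limma adjusted p = 0.571), and it was the one gene of complex IV at an unadjusted p under 0.05. That makes 6.67% of the complex IV genes tested, against 4.87% of all genes tested. Cox5b, a nuclear subunit that faces the matrix, had 22.2 ± 7.94 FPKM in FTbR2KO and 30.0 ± 4.37 FPKM in TbR2fl/fl libraries (log2 fold change -0.47, SE 0.21). Cox4i1, the subunit needed to assemble the complex, had 91.0 ± 11.9 FPKM in FTbR2KO and 108 ± 12.6 FPKM in TbR2fl/fl libraries (log2 fold change -0.25, SE 0.13).

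Several complex IV subunits have a second form made in other tissues or under low oxygen. Cox4i2, the form induced by hypoxia and strong in lung, had the highest log2 fold change of all members, 0.26, with an SE of 0.30 and a 95% confidence interval of -0.42 to 0.95. This value rested on single libraries, and was 0.0055 without TbR2fl/fl 5 and 0.53 without TbR2fl/fl 8. It made up 7.01%, 10.6%, 8.28% and 6.01% of summed Cox4i1 and Cox4i2 FPKM in FTbR2KO, and 3.40%, 5.26%, 5.24% and 9.03% in TbR2fl/fl libraries. The shares overlap through TbR2fl/fl 8 alone, which lay between FTbR2KO 2 and FTbR2KO 3. Ndufa4l2, also induced by hypoxia, was the main form over Ndufa4, a subunit now assigned to complex IV, at 66.1 to 68.6% of the pair in FTbR2KO and 68.2 to 77.0% in TbR2fl/fl libraries. The muscle forms were low: Cox6a2 made up at most 0.433% of its pair in any library, Cox7a1 made up 2.18 to 5.75% of its pair with Cox7a2 in FTbR2KO and 1.96 to 5.25% in TbR2fl/fl libraries, and Cox7b2, which is active in testis, was listed at 0 in all 8. Cox6b2, another form known from testis, had 2.45 ± 0.692 FPKM in FTbR2KO and 3.24 ± 0.492 FPKM in TbR2fl/fl libraries, beside 62.2 ± 5.37 and 72.4 ± 12.2 FPKM of Cox6b1 in the same order of groups. Cox7b had a log2 fold change of -0.15 (SE 0.15).

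In complex V all 17 tested genes had a log2 fold change below 0, with a median of -0.13. Atp5a1, the alpha subunit, had the highest mean FPKM of this complex. It stood at 83.0, 95.3, 109 and 106 FPKM in FTbR2KO, against 86.5, 117, 106 and 115 FPKM in TbR2fl/fl libraries, and the groups overlapped. Atp5k, subunit e, which helps ATP synthases pair into dimers, stood at 8.60, 8.97, 8.38 and 13.3 FPKM in FTbR2KO, against 11.4, 13.4, 12.3 and 18.02 FPKM in TbR2fl/fl libraries. FTbR2KO 1 to 3 lay below all TbR2fl/fl libraries, and FTbR2KO 4 among them, with a log2 fold change of -0.45 (SE 0.17; limma adjusted p = 0.571). Atp5e, the epsilon subunit of the central stalk, had 29.9 ± 8.38 FPKM in FTbR2KO and 40.1 ± 7.86 FPKM in TbR2fl/fl libraries (log2 fold change -0.43, SE 0.20).

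Subunit c, of which the proton-driven rotor ring is built, is encoded by 3 genes that give the same mature protein. Atp5g3 stood at 23.3, 25.1, 26.4 and 33.3 FPKM in FTbR2KO, against 28.2, 37.6, 35.8 and 39.5 FPKM in TbR2fl/fl libraries. FTbR2KO 4 lay above TbR2fl/fl 5 and the other 3 below it, and the log2 fold change was -0.37 (SE 0.14; limma adjusted p = 0.571). Atp5g2 had 29.5 ± 2.78 FPKM in FTbR2KO and 30.4 ± 3.51 FPKM in TbR2fl/fl libraries, and Atp5g1 5.03 ± 0.985 and 5.30 ± 1.11 FPKM in the same order. The level of Atp5g1 is less certain, because Gm10039, a processed pseudogene, is 99.8% identical to it over 411 bases. Gm10039 averaged 27.1 FPKM in FTbR2KO and 28.7 FPKM in TbR2fl/fl libraries. Whether its reads came from Atp5g1 was not tested. The Atp5g3 share of summed Atp5g3 and Atp5g2 FPKM was 47.8%, 44.3%, 46.4% and 52.4% in FTbR2KO and 51.9%, 52.7%, 55.3% and 54.7% in TbR2fl/fl libraries. FTbR2KO 1 to 3 lay below every TbR2fl/fl library in this share, and FTbR2KO 4 lay just above the lowest of them.

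The 13 mitochondrial genes had levels in 2 separate ranges, which divided them by their place on the genome. Outside the stretch from mt-Co2 to mt-Nd4l, 7 genes summed to 8288 ± 312 FPKM in FTbR2KO and 7964 ± 1483 FPKM in TbR2fl/fl libraries (SD, n = 4 each). Inside it, 6 neighbouring genes together held 59.7 ± 9.40 FPKM in FTbR2KO and 61.1 ± 18.8 FPKM in TbR2fl/fl libraries. mt-Co1, which carries the oxygen-reducing site of complex IV, was the highest, at 3184, 3184, 3530 and 3322 FPKM in FTbR2KO and 2356, 3499, 3578 and 3378 FPKM in TbR2fl/fl libraries. TbR2fl/fl 5 lay far below the other 7 libraries. mt-Co2, its partner in the same core and next on the genome, stood at 24.3, 12.8, 17.4 and 17.7 FPKM in FTbR2KO and 10.7, 29.2, 19.3 and 19.2 FPKM in TbR2fl/fl libraries. mt-Cytb, the heme-bearing core of complex III, averaged 1818 ± 42.5 FPKM in FTbR2KO and 1668 ± 314 FPKM in TbR2fl/fl libraries.

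The complex I genes of the mitochondrial genome showed the same split. mt-Nd1 averaged 1129 ± 57.8 FPKM in FTbR2KO and 1147 ± 245 FPKM in TbR2fl/fl libraries. mt-Nd2 averaged 556 ± 31.0 FPKM in FTbR2KO and 499 ± 111 FPKM in TbR2fl/fl libraries, the highest log2 fold change of the mt- genes at 0.18 (SE 0.17; limma adjusted p = 0.764). Without TbR2fl/fl 5 it was 0.029, and without TbR2fl/fl 7 it was 0.30. mt-Nd4, mt-Nd5 and mt-Nd6, which lie in the membrane arm, averaged 710 ± 21.5, 401 ± 39.2 and 368 ± 64.9 FPKM in FTbR2KO libraries. In TbR2fl/fl libraries the same 3 genes averaged 675 ± 133, 382 ± 61.1 and 390 ± 90.9 FPKM. mt-Nd6 is the one protein gene on the other strand, and the sources used here do not say whether reads were counted by strand. By contrast, mt-Nd3 averaged 13.3 ± 2.85 FPKM in FTbR2KO and 13.7 ± 4.80 FPKM in TbR2fl/fl libraries, and mt-Nd4l stood at 4.46 to 6.19 FPKM in FTbR2KO and 3.44 to 6.25 FPKM in TbR2fl/fl libraries. For the ATP synthase, mt-Atp6, the proton channel, averaged 12.4 ± 1.77 FPKM in FTbR2KO and 12.4 ± 4.44 FPKM in TbR2fl/fl libraries. mt-Co3 averaged 9.96 ± 2.41 FPKM in FTbR2KO and 9.74 ± 2.69 FPKM in TbR2fl/fl libraries. mt-Atp8, which overlaps mt-Atp6, rested on 14 reads in all FTbR2KO and 18 in all TbR2fl/fl libraries and was not tested.

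The low stretch has a near-identical annotated copy in the nuclear genome, a block of pseudogenes on the minus strand of chromosome 1 (chr1:24611535-24616197, GRCm38). mt-Co2, mt-Atp6, mt-Co3, mt-Nd3 and mt-Nd4l were covered over 99.0 to 99.9% of their length at an identity of at least 99.7%. Of the high genes, mt-Nd4 was covered over 63.6% and mt-Co1 over 31.3%, and the other 5 had no copy of at least 98% identity over 100 bases. mt-Atp8 lies within the stretch but has no annotated copy, and bases of chromosome 1 outside annotated transcripts were not searched. Reads were assigned to the copies too. Gm10925, the copy of mt-Atp6, averaged 14.7 FPKM in FTbR2KO and 15.7 FPKM in TbR2fl/fl libraries, and Gm28661, the copy of mt-Co2, averaged 9.58 and 11.8 FPKM in the same order. Gm28438, the copy of mt-Nd3, was lower, at 1.52 and 1.16 FPKM. mt-Nd3 and its copy Gm28438 (chr1:24612775-24613119) are shown over their first 150 bases to let the likeness be seen: 345 bases align and 1 differs, T3C (counted from the first base of mt-Nd3), in capitals. Both are from the GENCODE M21 transcripts (GRCm38).
mt-Nd3: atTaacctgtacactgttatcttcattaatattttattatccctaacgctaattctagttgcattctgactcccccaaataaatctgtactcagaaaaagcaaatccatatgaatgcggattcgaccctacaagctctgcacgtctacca
Gm28438: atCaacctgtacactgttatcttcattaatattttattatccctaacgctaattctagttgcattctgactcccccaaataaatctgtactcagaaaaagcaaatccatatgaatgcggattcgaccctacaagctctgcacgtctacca
mt-Nd4l and its copy Gm10222 do not differ at any of 294 aligned bases. A read from such a stretch cannot be placed by its sequence, and the levels of the 5 covered genes are therefore uncertain. The same limit holds for reads from the covered parts of mt-Nd4 and mt-Co1. Their copies Gm28439 and Gm29216 averaged 3.73 and 5.93 FPKM in FTbR2KO, and 3.45 and 5.86 FPKM in TbR2fl/fl libraries. The sources used here do not say how such reads were counted. Leaving out the stretch of 6 genes, an alternative chosen after their levels were seen, gave an mt- median log2 fold change of 0.079, against 0.058 with them.

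**Figure D3:**
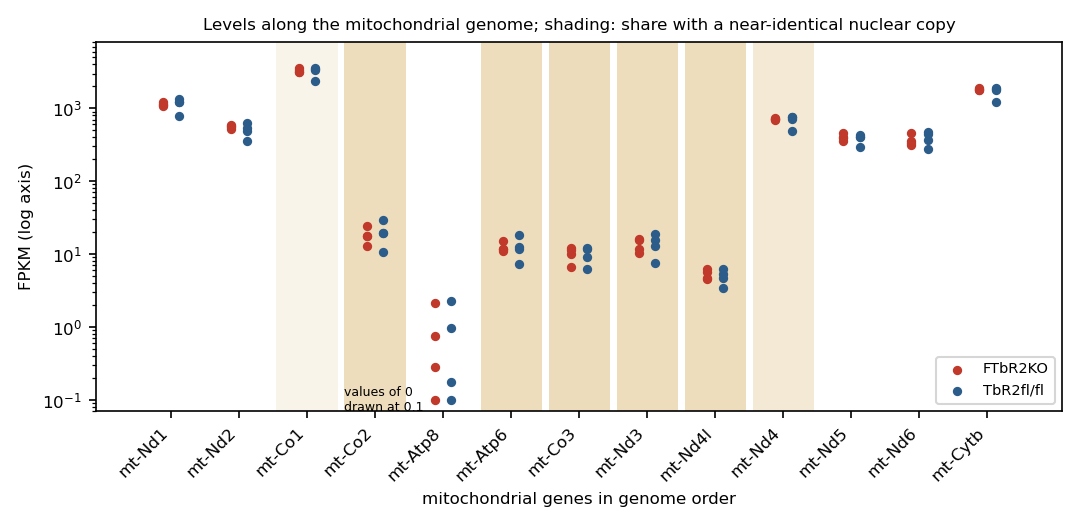
FPKM on a log axis of the 13 mitochondrial protein genes in genome order in each library, FTbR2KO at the left of each pair. Shading deepens with the share of the gene that has an annotated near-identical nuclear copy. mt-Co2 to mt-Nd4l lie at up to 29.2 FPKM and their neighbours mt-Co1 and mt-Nd4 at 480 FPKM or more.

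Within each library, the ratio of mt- to nuclear FPKM does not depend on how the library was scaled. The nuclear members summed to 1765, 1992, 2201 and 2306 FPKM in FTbR2KO 1 to 4, against 1949, 2577, 2395 and 2716 FPKM in TbR2fl/fl 5 to 8. The mt- genes summed to 8215, 7992, 8724 and 8459 FPKM in FTbR2KO, against 5784, 8601, 8905 and 8810 FPKM in TbR2fl/fl libraries. Their ratio was 4.66, 4.01, 3.96 and 3.67 in FTbR2KO and 2.97, 3.34, 3.72 and 3.24 in TbR2fl/fl libraries, or 4.07 ± 0.416 and 3.32 ± 0.311 (SD, n = 4 each). The groups overlap by 1 pair, FTbR2KO 4 lying below TbR2fl/fl 7. On the log2 scale the ratio was 0.30 higher in FTbR2KO libraries, and 0.18 higher without FTbR2KO 1 and TbR2fl/fl 5.

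**Figure D4:**
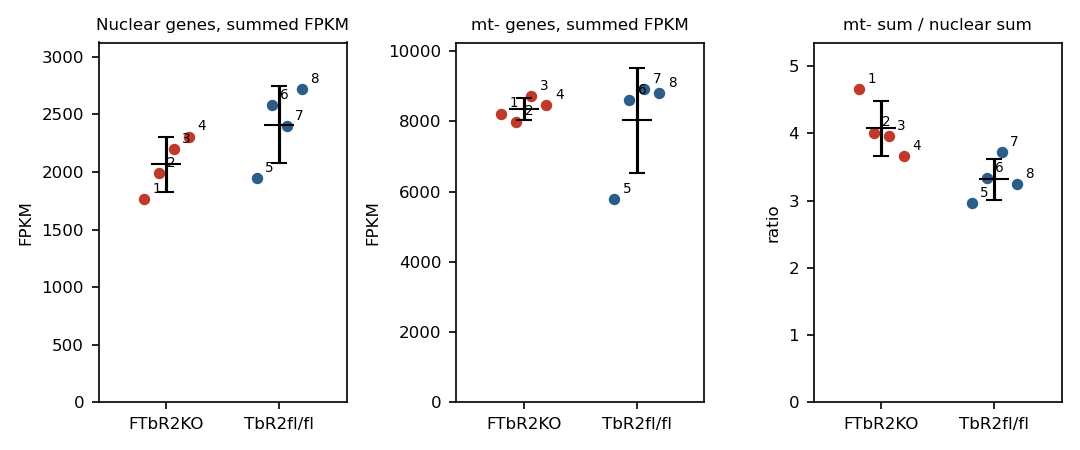
Summed FPKM of the 87 nuclear genes, summed FPKM of the 13 mt- genes, and the ratio of the sums, in each library (numbered points), with the mean and SD of 4 libraries per group. TbR2fl/fl 5 is low in both sums, and the ratio is 3.67 to 4.66 in FTbR2KO against 2.97 to 3.72 in TbR2fl/fl libraries.

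Libraries of 1 group also differed from each other across these genes. FTbR2KO 1 held the lowest of the 8 values in 47 of the 82 tested nuclear genes and TbR2fl/fl 8 held the highest in 49. Within the FTbR2KO group, FTbR2KO 1 was the lowest in 63 genes, and FTbR2KO 4 the highest in 43. Among the TbR2fl/fl libraries, TbR2fl/fl 5 was the lowest in 77 of the 82 nuclear and in all 12 tested mt- genes. Over all genes tested, FTbR2KO 1 and TbR2fl/fl 5 were the lowest of 8 in 18.7% and 20.1%, beside 57.3% and 22.0% of the tested nuclear members. In the FTbR2KO group the order of the nuclear sums was also the order of depth, 16.1, 17.7, 19.6 and 22.9 M reads. In the TbR2fl/fl group it was not: TbR2fl/fl 7 had the fewest reads, 21.2 M, and a sum of 2395 FPKM, while TbR2fl/fl 5 had 27.7 M reads and the lowest sum, 1949 FPKM. The part of depth in these values was not tested. In bulk samples, fewer cells of a type and less RNA per cell cannot be told apart.

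Gene length moved with the result as well. The part of length in it was not tested beyond the values given here. The tested nuclear members have a median length of 1631 bases. Among other genes the median log2 fold change was -0.11 under 750 bases, -0.13 from 750 to 1200, -0.096 from 1200 to 2000, -0.044 from 2000 to 4000 and 0.040 at 4000 bases or more. The nuclear members stood at -0.40, -0.26, -0.20, -0.16 and -0.060 in the same ranges, below the other genes in each. The 9 members under 750 bases all lay below 0. A correction of each library for length left the nuclear median at -0.11 and put the mt- median at 0.16, and 11 nuclear genes were then lower at an unadjusted p under 0.05. The 71 nuclear members with no near-identical copy, of which 66 were tested, had a median of -0.19 with 62 below 0.

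**Figure D5:**
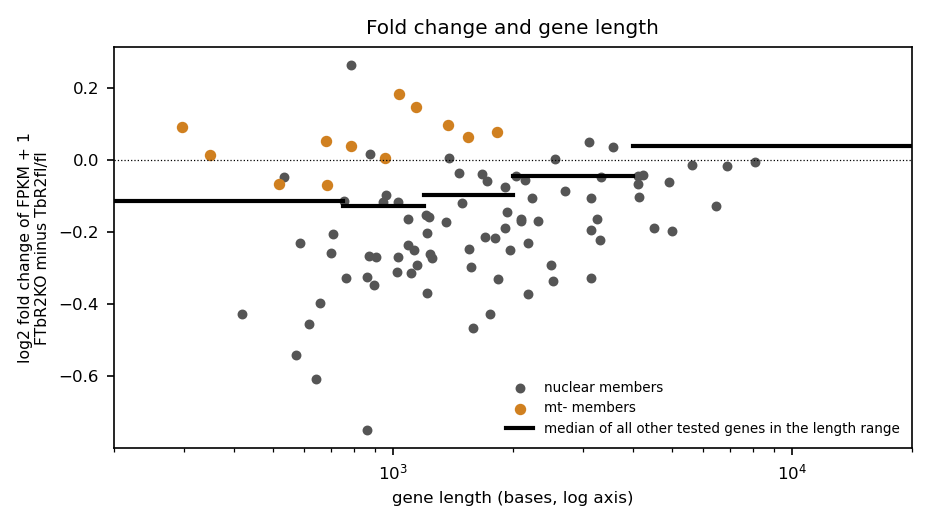
Log2 fold change of FPKM + 1, FTbR2KO minus TbR2fl/fl, against gene length on a log axis for nuclear (grey) and mt- (orange) members. Black bars are medians of all other tested genes in 5 length ranges, from -0.13 for genes of 750 to 1200 bases to 0.040 for those of 4000 or more; 8 of the 9 nuclear members under 750 bases lie below theirs.

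Promoters of many nuclear subunit genes are known to bind NRF1, GABP and YY1, transcription factors of respiratory gene expression. RefSeq promoters (GRCm38.p6, 250 bases before to 50 after the start) were given for 69 of the 86 distinct nuclear symbols. The NRF1 motif was found on either strand in 19 of them, or 27.5%, against 5.19% of the promoters of 27025 genes. The GABP motif CCGGAAGT was found in 4, or 5.80%, against 4.31%, and the YY1 motif also in 4, against 0.755%. Of the 69 promoters 25 held at least 1 of the 3 motifs, and Atp5h and Ndufs6 held a pair of them. The tested members with an NRF1 match had a median log2 fold change of -0.23 (18 genes) and those without of -0.20 (48 genes). Promoters of a pair of the members with the larger differences are shown with the match in capitals, NRF1 in Atp5k (chr5:108434350-108434649, minus strand) and GABP in Uqcr11 (chr10:80406772-80407071, minus strand).
Atp5k: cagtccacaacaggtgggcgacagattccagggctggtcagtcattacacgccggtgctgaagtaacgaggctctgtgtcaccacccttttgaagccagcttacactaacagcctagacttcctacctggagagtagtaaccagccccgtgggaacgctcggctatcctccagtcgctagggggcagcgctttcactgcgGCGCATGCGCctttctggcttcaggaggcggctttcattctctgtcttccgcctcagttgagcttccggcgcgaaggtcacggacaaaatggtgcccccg
Uqcr11: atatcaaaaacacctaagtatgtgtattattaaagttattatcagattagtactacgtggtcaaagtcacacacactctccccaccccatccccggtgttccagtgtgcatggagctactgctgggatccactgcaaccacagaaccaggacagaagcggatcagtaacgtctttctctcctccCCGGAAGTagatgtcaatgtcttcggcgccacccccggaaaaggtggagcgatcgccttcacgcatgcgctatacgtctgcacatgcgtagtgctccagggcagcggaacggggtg
A match is a description of letters and not a site of binding. The factors themselves stood at 2.15 ± 0.334 FPKM for Nrf1, 9.07 ± 1.29 FPKM for Gabpa and 14.4 ± 0.281 FPKM for Yy1 in FTbR2KO libraries. In TbR2fl/fl libraries they stood at 2.00 ± 0.135, 8.24 ± 0.587 and 13.1 ± 0.379 FPKM, and Yy1 was the one of the 3 whose groups did not overlap (limma adjusted p = 0.604).

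Other genes of the respiratory chain and of the mitochondrion were compared as lists chosen with earlier results of these data known. None had a gene past the threshold. Of 9 carriers and subunits outside the name rule, such as cytochrome c and Cox8a, 7 lay below 0 with a median log2 fold change of -0.11. Etfb, which with Etfa passes electrons from fatty acid oxidation to the chain, stood at 3.03 ± 1.38 FPKM in FTbR2KO and 4.90 ± 0.555 FPKM in TbR2fl/fl libraries (log2 fold change -0.61, SE 0.22; limma adjusted p = 0.571). The medians of the assembly factor lists were -0.024 for complex I (14 genes), -0.047 for complex III (5 genes), -0.038 for complex IV (15 genes) and -0.078 for complex V (3 genes). All 5 complex III factors lay below 0, and Uqcc2 and Uqcc3 were lower at an unadjusted p under 0.05. Of the complex IV factors Cmc1 was higher and Cox14 lower by that rule, against 3.74% of all genes tested higher and 4.87% lower. Cmc1 had 8.05 ± 0.626 FPKM in FTbR2KO and 7.01 ± 0.205 FPKM in TbR2fl/fl libraries (limma adjusted p = 0.571). Cmc1, Coa5 and, among the carriers, Etfdh were higher with no overlap between the groups, as were 2.52% of all genes tested. Of the complex V factors Atpaf1 was lower at that p and did not overlap between the groups, with 1.48 ± 0.128 FPKM in FTbR2KO and 1.86 ± 0.187 FPKM in TbR2fl/fl libraries (limma adjusted p = 0.576). Uqcc3, which helps assemble complex III around mt-Cytb, had the lowest log2 fold change of the assembly factor lists, with 12.3 ± 2.99 FPKM in FTbR2KO and 17.2 ± 1.35 FPKM in TbR2fl/fl libraries (log2 fold change -0.47, SE 0.14; limma adjusted p = 0.571). The enzymes of the citric acid cycle had a median of -0.0077 (14 genes, 8 below 0), the genes of mitochondrial DNA expression 0.0084 (15 genes, 6 below 0) and those of import and the inner membrane -0.039 (14 genes, 10 below 0). The 6 tested regulators of mitochondrial biogenesis had a median of 0.12, and Ppargc1a, the coactivator that drives respiratory genes in muscle and fat, was under the filter at 0.0679 ± 0.0531 FPKM in FTbR2KO and 0.0599 ± 0.0517 FPKM in TbR2fl/fl libraries.

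Ribosomal protein genes, another group of short and abundant transcripts, also lay lower, with median lengths of 1805.5 bases for the cytosolic and 2255 bases for the mitochondrial ones. Of 78 tested cytosolic ribosomal genes 76 lay below 0, with a median log2 fold change of -0.21. At an unadjusted p under 0.05, 22 of them, or 28.2%, were lower, against 4.87% of all genes tested. Of 77 mitochondrial ribosomal genes 63 lay below 0, with a median of -0.10, and 12, or 15.6%, were lower by that rule. Of all genes tested 51.2% lay below 0. Rpl7a, of the large cytosolic subunit, stood at 35.2 ± 4.03 FPKM in FTbR2KO and 65.7 ± 14.1 FPKM in TbR2fl/fl libraries (log2 fold change -0.87; limma adjusted p = 0.571), and Mrpl41, of the mitochondrial one, at 9.06 ± 0.473 and 11.5 ± 1.00 FPKM in the same order.

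Heart muscle cells are rich in these transcripts, and their markers were near 0. Myh6 stood at 0.252 ± 0.0773 FPKM in FTbR2KO and 0.269 ± 0.0853 FPKM in TbR2fl/fl libraries. The 9 cardiomyocyte markers, among them Myh6 and Tnnt2, summed to 2.73 to 5.58 FPKM in FTbR2KO and 3.97 to 4.62 FPKM in TbR2fl/fl libraries, and 7 of the 9 were under 1 FPKM in every library. The 7 macrophage markers summed to 7.98 to 12.1 FPKM in FTbR2KO and 9.83 to 12.3 FPKM in TbR2fl/fl libraries, with Ptprc at no more than 0.0149 ± 0.0132 FPKM (mean and SD, n = 4) in either group. Cd68, Lyz2 and Cd14 passed the filter, averaging 4.60, 3.89 and 1.41 FPKM in FTbR2KO and 3.39, 4.43 and 1.92 FPKM in TbR2fl/fl libraries. Within the groups Cd68 was highest in FTbR2KO 1, at 7.15 FPKM, and in TbR2fl/fl 5, at 5.36 FPKM. The 5 epicardial markers summed to 3.84 to 31.6 FPKM in FTbR2KO and 0.641 to 19.6 FPKM in TbR2fl/fl libraries, highest in FTbR2KO 1 and, among TbR2fl/fl libraries, in TbR2fl/fl 5. Each of these 5 had a log2 fold change above 0, with a median of 0.43 and a smallest limma adjusted p of 0.772. The 6 mural markers, of pericytes and smooth muscle cells, were the most abundant of these lists, at 47.1 to 73.9 FPKM in FTbR2KO and 47.6 to 63.3 FPKM in TbR2fl/fl libraries. All 6 had a log2 fold change above 0, with a median of 0.13 and a smallest limma adjusted p of 0.604. The part of these lists in the values of the nuclear genes was not tested.

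Members under the filter were few and low. Sdhaf1, Sdhaf3, Cox6a2 and mt-Atp8 stood below 3 FPKM in every library, and Cox7b2 and a second row named Atp5o were listed at 0 in all 8. Among the tested nuclear members, mean levels over the 8 libraries ran from 1.26 FPKM for Cox7a1 to 131 FPKM for Cox6a1. The median level of the subunit genes was 17.2 FPKM in complex I, 24.2 in complex II, 27.4 in complex III, 29.0 in complex IV and 26.2 in complex V. These levels are per annotated gene length, which for some members is far above the length of their longest protein-coding transcript. Ndufb7 has 4522 bases against 623 and Atp5b 4237 against 1916, while Ndufa2 has 572 in both. The rankings of members and complexes by FPKM, and the shares within isoform pairs, depend on these lengths.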

How the data were processed

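RNA from 8 samples of sorted mouse cardiac fibroblasts was sequenced as poly(A) libraries made with the NEBNext Ultra kit, per the labels' protocols. Tools listed in the submitters' processing notes, without roles, are HTSeq 0.6.1, Cufflinks 2.1.1, TopHat2 2.0 and CASAVA; GRCm38.p6 and mm10 are the builds listed. The deposited table gives the authors' FPKM and a gene length per gene; the sources used here do not state strandedness. Whole reads per gene were recovered from FPKM and length, and 100% of values came out whole within 0.01.

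Members and gene lists were chosen with earlier results of these data known. Genes reaching 1 FPKM in 4 or more of 8 libraries were tested on log2(FPKM + 1) with limma 3.58.1 (R 4.3.3, trended empirical Bayes, Benjamini-Hochberg adjustment), after the code was tested on simulated data. The pseudocount of 1 understates differences of low genes. Named genes were all mt- genes, the most abundant and the 3 lowest p-values of each complex, isoform pairs, members under the filter, the leading genes of related lists and the marker genes; others are said to be chosen later. Near-identical copies were sought among annotated transcripts with blastn 2.17.0 (at least 98% identity over at least 100 bases). Alternatives covered pseudocount, filter, scaling, gene length, library weights, a fit to the recovered reads, copies and leaving out libraries.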

Additional observations from a re-analysis of the deposited data

Results flagged for a closer look

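Of 114 groups of 4 libraries examined, 8 held a library far from the other 3, where chance flags about 1 in 20 groups. FTbR2KO 4 stood apart in Ndufs5, at 31.9 FPKM against 13.2 to 16.1 FPKM in the other FTbR2KO libraries, and in Atp5k, at 13.3 FPKM against 8.38 to 8.97 FPKM. TbR2fl/fl 5 stood apart in Ndufs5, at 21.5 FPKM against 32.3 to 34.0 FPKM in the other TbR2fl/fl libraries. It was also low in mt-Co1, at 2356 FPKM against 3378 to 3578 FPKM, and in mt-Nd5, at 291 FPKM against 406 to 425 FPKM. The sum of its mt- genes was 5784 FPKM against 8601 to 8905 FPKM, and the mean of their log2(FPKM + 1) was 6.62 against 7.25 to 7.35. TbR2fl/fl 8 stood apart in the share of Ndufa4l2 in the pair with Ndufa4, at 77.0% against 68.2 to 69.3%.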

How the results depend on the processing

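No member passed the adjusted threshold under any of the 22 settings. No paired analysis was made, because the labels number the samples 1 to 4 and 5 to 8, so the groups share no number. The headers also carry an identifier for each sample. Some lie close across the groups, those of FTbR2KO 1 and TbR2fl/fl 5 among them, but no label says what they mark. Of 1064 results by setting 971 stayed alike: gene values kept their sign, counts stayed within 1.5 times and medians within 1 SD, a range in which the mt- median can turn sign. Of the rest, 20 counts and medians moved further and 73 of 778 gene values turned sign, over 20 of 39 genes. The 971 include values that could not change, so their share is no measure of stability. Another filter leaves the fold change of a gene as it was, and added copy reads change only members with a copy. Leaving out 1 library at a time gave nuclear medians of -0.28 to -0.12, mt- medians of -0.11 to 0.13 and 5 to 40 nuclear genes lower at an unadjusted p under 0.05. Complex medians were then -0.29 to -0.16 (I), -0.20 to -0.075 (II), -0.28 to -0.11 (III), -0.30 to -0.078 (IV) and -0.21 to -0.075 (V). Conversion to TPM and rescaling without mt- genes, which both divide by summed FPKM, moved the median of all genes to 0.15 and 0.14. They gave 48 and 44 nuclear genes below 0, against 19.6% and 18.5% of all genes. At that p 3 and 3 were lower (0.643% and 0.60% of all genes), and the complex II medians were 0.031 and 0.037. Gene-length correction gave 11 lower genes (3.39% of all genes), library weights 43 (10.4%), and leaving out both FTbR2KO 1 and TbR2fl/fl 5 gave 32 (5.90%). Among mt- genes, mt-Co1 alone reached that p under quantile normalization, where 9.13% of all genes did in either direction. With TPM and with rescaling it was mt-Nd2 alone (13.1% and 13.7% of all genes), and without those libraries mt-Co2 alone (10.5%).

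Values that turned sign with TPM and rescaling were 0.061 and 0.068 for Atp5a1, 0.090 and 0.085 for Atp5g1, 0.13 and 0.13 for Atp5g2, 0.074 and 0.041 for Cox7a1, 0.047 and 0.053 for Cox7a2, 0.00902 and 0.015 for Cox7b, 0.00500 and 0.012 for Sdhd, 0.095 and 0.098 for mt-Co2, and 0.10 and 0.11 for mt-Nd6. Rescaling gave 0.00153 for Sdhc. Quantile normalization gave 0.00300 for Atp5g2, -0.012 for mt-Nd1 and 0.011 for mt-Nd6. Length correction gave 0.054 for Atp5g2, 0.062 for Cox7a1, 0.041 for mt-Co2 and 0.043 for mt-Nd6. Library weights gave -0.027 for Ndufa4, -0.11 for mt-Atp6, -0.030 for mt-Co1, -0.18 for mt-Co3, -0.10 for mt-Nd1, -0.24 for mt-Nd3 and -0.016 for mt-Nd5. Adding copy reads, chosen after seeing the data, gave -0.013 for mt-Atp6. Without FTbR2KO 1 and TbR2fl/fl 5 the values were -0.25 for mt-Atp6, -0.060 for mt-Co1, -0.15 for mt-Co3, -0.00596 for mt-Cytb, -0.16 for mt-Nd1, -0.30 for mt-Nd3, -0.059 for mt-Nd4 and -0.030 for mt-Nd5.

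Leaving out 1 library gave -0.18 to 0.028 for Atp5g1, -0.11 to 0.028 for Atp5g2, -0.20 to 0.14 for Cox7a1, -0.093 to 0.11 for Ndufa4, -0.16 to 0.24 for mt-Atp6, -0.077 to 0.12 for mt-Co1, -0.32 to 0.14 for mt-Co2, -0.14 to 0.20 for mt-Co3, -0.0033 to 0.21 for mt-Cytb, -0.17 to 0.090 for mt-Nd1, -0.23 to 0.18 for mt-Nd3, -0.059 to 0.16 for mt-Nd4, -0.036 to 0.20 for mt-Nd4l, -0.046 to 0.13 for mt-Nd5 and -0.23 to 0.038 for mt-Nd6. Of the 24 named genes that kept their sign, 11 moved by over 1.5 times, the widest being Cox4i2 at 0.0055 to 0.53, Cox7a2 at -0.24 to -0.0058, Ndufa4l2 at -0.37 to -0.035 and mt-Nd2 at 0.029 to 0.30. The cause of these shifts was not tested. Depth limits mt-Atp8, with 14 reads in the FTbR2KO and 18 in the TbR2fl/fl group, and Cox6a2, with 14 and 22.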
